A study of Mus musculus with 18 samples.

Results

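Oocytes without Lsm14b were compared with wild-type oocytes at the germinal vesicle (GV) stage, in which the oocyte is arrested in meiotic prophase with an intact nucleus. The comparison takes 6 of the 18 libraries of a mouse series: the 3 KO and the 3 WT libraries that the labels place at GV. Each library was made from 15 pooled oocytes, of Lsm14b-/- mice (KO) in one group and wild-type mice (WT) in the other. The remaining 12 libraries hold oocytes of the same 2 genotypes at 2 later stages, metaphase I (MI) and, labelled MII, the time point 14 h after gonadotropin (hCG) injection, and are used only to follow the genes that differed at GV. The sources used here do not state the deleted part of Lsm14b, the strain, the age of the mice or whether replicates came from separate mice, so the p-values measure the spread between these libraries, which may be technical. No other allele is named for either genotype, and no agent is named for GV oocytes.

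LSM14B is an RNA-binding protein of the LSM14 (RAP55) family, whose members act with DDX6 and the eIF4E-binding protein 4E-T in repressed messenger ribonucleoprotein particles. A fully grown GV oocyte makes almost no new mRNA and lives on transcripts stored during growth. Many of these are held with short poly(A) tails and are lengthened and translated only when meiosis resumes, through a cytoplasmic polyadenylation element (CPE) close to the end of the 3′ untranslated region (UTR), while others are deadenylated and cleared. cDNA was primed with oligo(dT), so a level measured here can depend on the poly(A) tail as well as on the number of mRNA molecules. In libraries of pooled cells, fewer cells of a type and less RNA per cell cannot be told apart.

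Gene-assigned reads numbered 14227761 to 16396230 per library, and 8772 genes had at least 1 FPKM (the deposited unit, scaled by exon length and by depth) in at least 3 of them. KO GV replicate 2 stood apart. Its correlation with the other KO libraries was 0.862 and 0.929 across genes, against 0.964 to 0.985 between WT libraries, and it had 9715 genes at 1 FPKM or more, against 7986 to 9180 in the other 5. KO replicate 3 lay closer to WT (0.941 to 0.944) than KO replicate 2 did (0.811 to 0.850). Results are therefore given with and without KO replicate 2. All 16 oocyte markers reached the minimum level. Of 35 markers of cumulus and granulosa cells, the somatic cells around the oocyte, 8 reached it and 25 stayed under 1 FPKM in every library, with Ptx3, a cumulus matrix gene, at 0 in all 6. The sum over the 35 was 107.5 to 113.9 FPKM in KO and 105.7 to 116.7 FPKM in WT. Of the markers of theca, stroma and endothelium 2 of 19 and of those of blood 2 of 21 reached the minimum, with none called, and the hemoglobin genes Hba-a1 and Hbb-bs were at 0 in all 6.

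Lsm14b itself (ENSMUSG00000039108, chromosome 2, 180024987 to 180035465 on mm10) had 0.114, 0.234 and 0 FPKM in the 3 KO libraries, from 5, 10 and 0 reads, against 2.57, 2.28 and 2.04 FPKM in the 3 WT libraries, from 113, 108 and 84 reads. The groups did not overlap, and the fitted log2 difference was -1.56 (SE 0.18, limma with Benjamini-Hochberg adjustment, adjusted p = 0.00922). The WT level at GV was low, so this difference on the log2(FPKM + 1) scale understates the loss. As Lsm14b is the deleted gene, the design fixed this fall. Its call was lost without KO replicate 1, WT replicate 1 or WT replicate 2, at limma adjusted p of 0.0590, 0.0610 and 0.0536. The paralog Lsm14a had 24.4, 13.7 and 13.5 FPKM in KO and 16.1, 11.3 and 12.5 FPKM in WT, with overlapping groups and a log2 difference of 0.32 (adjusted p = 0.524).

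Of the 8772 genes tested, 358 (4.08%) passed an adjusted p of 0.05 in limma's test on log2(FPKM + 1) at GV, 121 higher in KO (1.38%) and 237 lower in KO (2.70%). The genes that were lower had a median of 3.66 FPKM in KO and 15.6 FPKM in WT. The genes that were higher had a median of 5.83 FPKM in KO and 1.32 FPKM in WT. Without KO replicate 2 the test called 509 genes (5.80%), 179 higher (2.04%) and 330 lower (3.76%). In all, 329 genes were called both ways, 106 of them higher and 223 lower. The groups did not overlap in any of the 358 genes, so all kept their sign without KO replicate 2 by necessity. Over all 8772 genes tested, 2745 (31.3%) showed no overlap. The median log2 difference of all tested genes was 0.16 with KO replicate 2 and 0.09 without it.

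**Figure D1:**
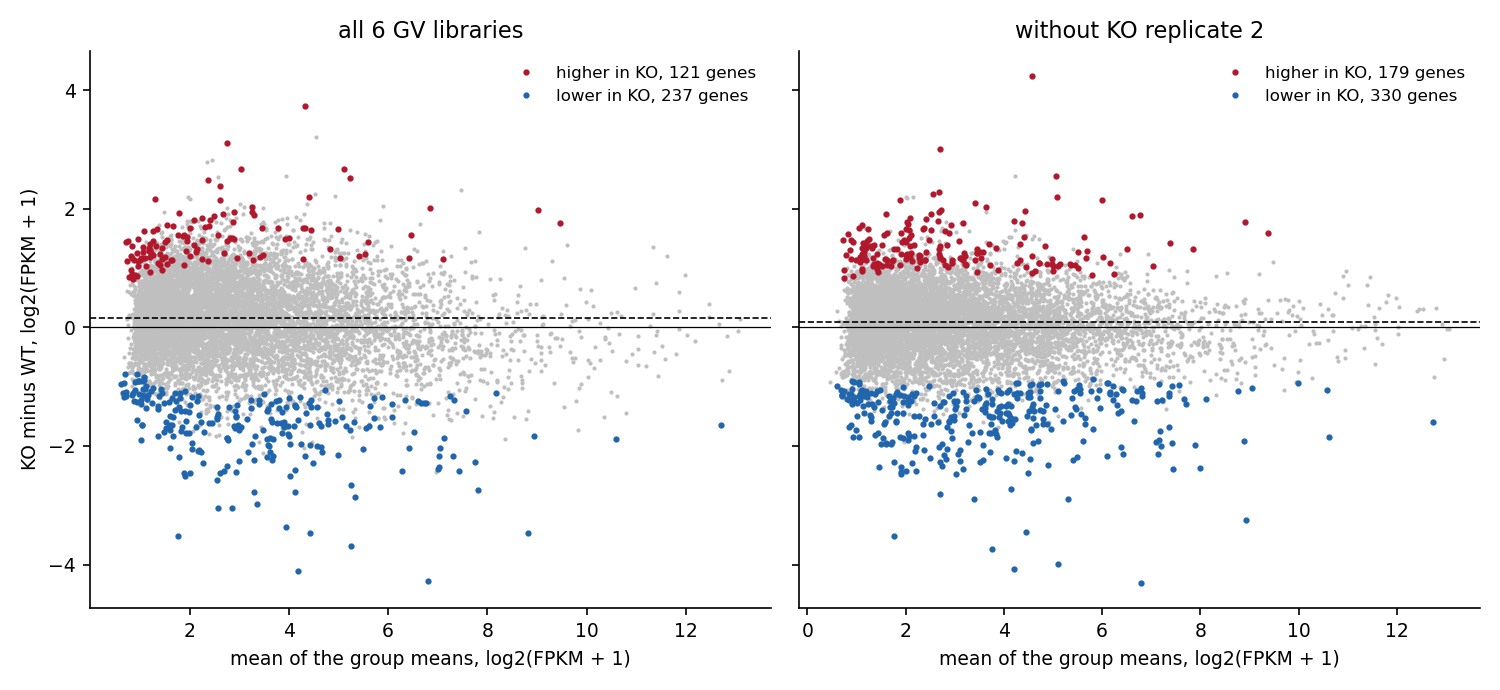
Difference of KO minus WT at GV against the mean level, both on the log2(FPKM + 1) scale, 1 point per gene, with all 6 libraries (left) and without KO replicate 2 (right). Coloured points passed an adjusted p of 0.05 and the dashed line is the median of all genes: with all 6 libraries 121 genes were higher and 237 lower, and without KO replicate 2 the counts were 179 and 330.

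How many genes passed depended strongly on which library was left out. The count was 2545 without KO replicate 3, 20 without KO replicate 1, and 12, 16 and 17 without WT replicates 1, 2 and 3. No called gene changed sign in these fits, but groups without overlap cannot do so when 1 library is left out. Called without any 1 of the 6 libraries were 10 genes, 9 lower and 1 higher. These were Pfdn4, Zc3h6, Pabpn1l, Ccdc69, Tmem128, Pdcl3, Nedd4l, the pseudogene Gm5946 and Efna4 among the lower genes, and Ftl1 as the higher gene. With no filter on low values, 11 of 63 called genes that are Lsm14b, the 15 largest falls and rises or list members still passed: Lsm14b, Pfdn4, Zc3h6, Pabpn1l, Ccdc69, Tmem128, Pdcl3, Nedd4l, Ftl1, Rad21l and Mrps18a. Efna4, which encodes an ephrin ligand, had 0.0413, 0 and 0.130 FPKM in KO and 2.92, 3.28 and 2.59 FPKM in WT. Gm5946 had 5.78, 5.37 and 5.34 FPKM in KO and 62.6, 64.7 and 88.1 FPKM in WT. These 2 genes were named after their values were seen.

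The deepest falls in KO oocytes took abundant transcripts down to a small part of their WT level. Pfdn4, a subunit of the prefoldin chaperone that hands unfolded actin and tubulin to the CCT chaperonin, had 23.5, 25.4 and 24.1 FPKM in KO and 501, 353 and 662 FPKM in WT (log2 difference -4.27, SE 0.29, limma adjusted p = 0.00111). Pdcl3, a phosducin-like partner of CCT, had 6.16, 5.34 and 5.65 FPKM in KO and 45.8, 36.1 and 54.2 FPKM in WT (-2.77, adjusted p = 0.00424). Both genes were nearly alike among the 3 KO libraries, KO replicate 2 included, and without it their log2 differences were -4.30 and -2.73. Other genes overlap 28.7% of the exon length of Pfdn4, so part of its reads may belong to a neighbour. Of the 19 prefoldin and CCT genes tested, these 2 were lower and 2 were higher (21.1% called, against 4.08% over all genes). Pdcl3 was counted in this list as a partner of CCT. The gene lists were written with earlier results of these data known. Their shares of called genes, here and below, are therefore not independent of these falls and rises. Cct4 had 38.9, 22.7 and 44.5 FPKM in KO and 12.4, 11.8 and 6.61 FPKM in WT, and Cct6a 7.05, 4.71 and 4.25 FPKM in KO and 1.31, 1.42 and 0.777 FPKM in WT, with limma adjusted p of 0.0389 and 0.0263. These 2 higher genes missed the threshold without KO replicate 1 or any 1 WT library, at adjusted p up to 0.157. The median of the 19 was 0.24, and 0.05 without KO replicate 2, against 0.16 and 0.09 over all genes.

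Zc3h6, Pabpn1l and Exosc3 were also among the 15 largest falls. Zc3h6, which encodes a CCCH zinc finger protein, had 4.16, 3.13 and 2.93 FPKM in KO and 64.7, 82.3 and 78.4 FPKM in WT (log2 difference -4.11, limma adjusted p = 0.00107). Pabpn1l, which encodes a poly(A)-binding protein of the oocyte, had 7.81, 15.3 and 7.32 FPKM in KO and 139, 131 and 137 FPKM in WT (-3.69, adjusted p = 0.00332), and Exosc3, a cap subunit of the RNA exosome, had 2.55, 7.06 and 2.88 FPKM in KO and 54.2, 32.8 and 63.6 FPKM in WT (-3.36, adjusted p = 0.00936). KO replicate 2 was the highest KO library for Pabpn1l and Exosc3, and without it the differences were -4.0 and -3.74. The call of Exosc3 was lost without KO replicate 1, WT replicate 1 or WT replicate 3 (adjusted p up to 0.0610), while those of Zc3h6 and Pabpn1l were kept. Among the 17 exosome genes tested, Exosc3 alone was lower and Wdr61 (Ski complex) alone was higher (11.8% called, against 4.08% over all genes). Wdr61 was at 3.03, 3.38 and 3.25 FPKM in KO and 1.13, 1.19 and 0.753 FPKM in WT, and exons of other genes cover 33.9% of it. The call of Wdr61 was lost without KO replicate 1 or any 1 WT library (limma adjusted p up to 0.175), with no filter on low values (0.0686) and under quantile normalization (0.0533).

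The other large falls belonged to different lists or to none. Sar1b, the GTPase that starts COPII vesicle budding, had 16.5, 6.90 and 24.1 FPKM in KO and 93.4, 91.9 and 97.4 FPKM in WT, with a log2 difference of -2.65 and of -2.18 without KO replicate 2, which was the lowest KO library. Tmem128, which encodes a transmembrane protein, had 3.33, 2.20 and 2.44 FPKM in KO and 27.9, 24.6 and 30.7 FPKM in WT. Nedd4l, a HECT ubiquitin ligase, had 0.942, 0.513 and 0.323 FPKM in KO and 7.99, 7.19 and 8.53 FPKM in WT. The 15 largest falls were chosen among genes without overlap between KO and WT, so their separation follows from that choice. Wdr20, a cofactor of the deubiquitinases USP12 and USP46, had 9.27, 5.22 and 5.88 FPKM in KO and 40.9, 47.4 and 31.1 FPKM in WT. Spry1, an inhibitor of receptor tyrosine kinase signalling, had 1.14, 0.652 and 0.429 FPKM in KO and 9.35, 13.4 and 4.55 FPKM in WT, with 24.4% of its exons shared with other genes. Eef1e1, a scaffold protein of the aminoacyl-tRNA synthetase complex, had 2.68, 1.48 and 1.38 FPKM in KO and 15.7, 10.6 and 16.2 FPKM in WT. The separation of the groups in these genes follows from the same choice. The remaining members of the 15 were Ccdc69, a coiled-coil protein gene with 132, 101 and 185 FPKM in KO and 1332, 1289 and 1963 FPKM in WT, Mapk1ip1, C86187 and Plat, a dormant mRNA. The list of COPII and ER to Golgi transport had 28 tested genes. Of these, 2 were lower, Sar1b and Tmem128, and 0 were higher (7.14% called, against 4.08% over all genes). Tmem128, given above only as a transmembrane protein gene, was counted in this list, so the share is not one of COPII genes alone. Of 30 genes of NEDD4-family ligases and E2 enzymes, 2 were lower, Nedd4l and the E2 enzyme gene Ube2t, and 1 was higher, Nedd4 (10% called). Ube2t, not one of the 15, had 59.9, 40.9 and 89.4 FPKM in KO and 288, 232 and 314 FPKM in WT, and its call was lost without KO replicate 1 or any 1 WT library. The adjusted p of the 15 genes by limma was 0.00107 to 0.0163, all 15 were called without KO replicate 2, and 7 were called without any 1 library, while the highest adjusted p of the other 8 was 0.0961, for Sar1b.

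**Figure D2:**
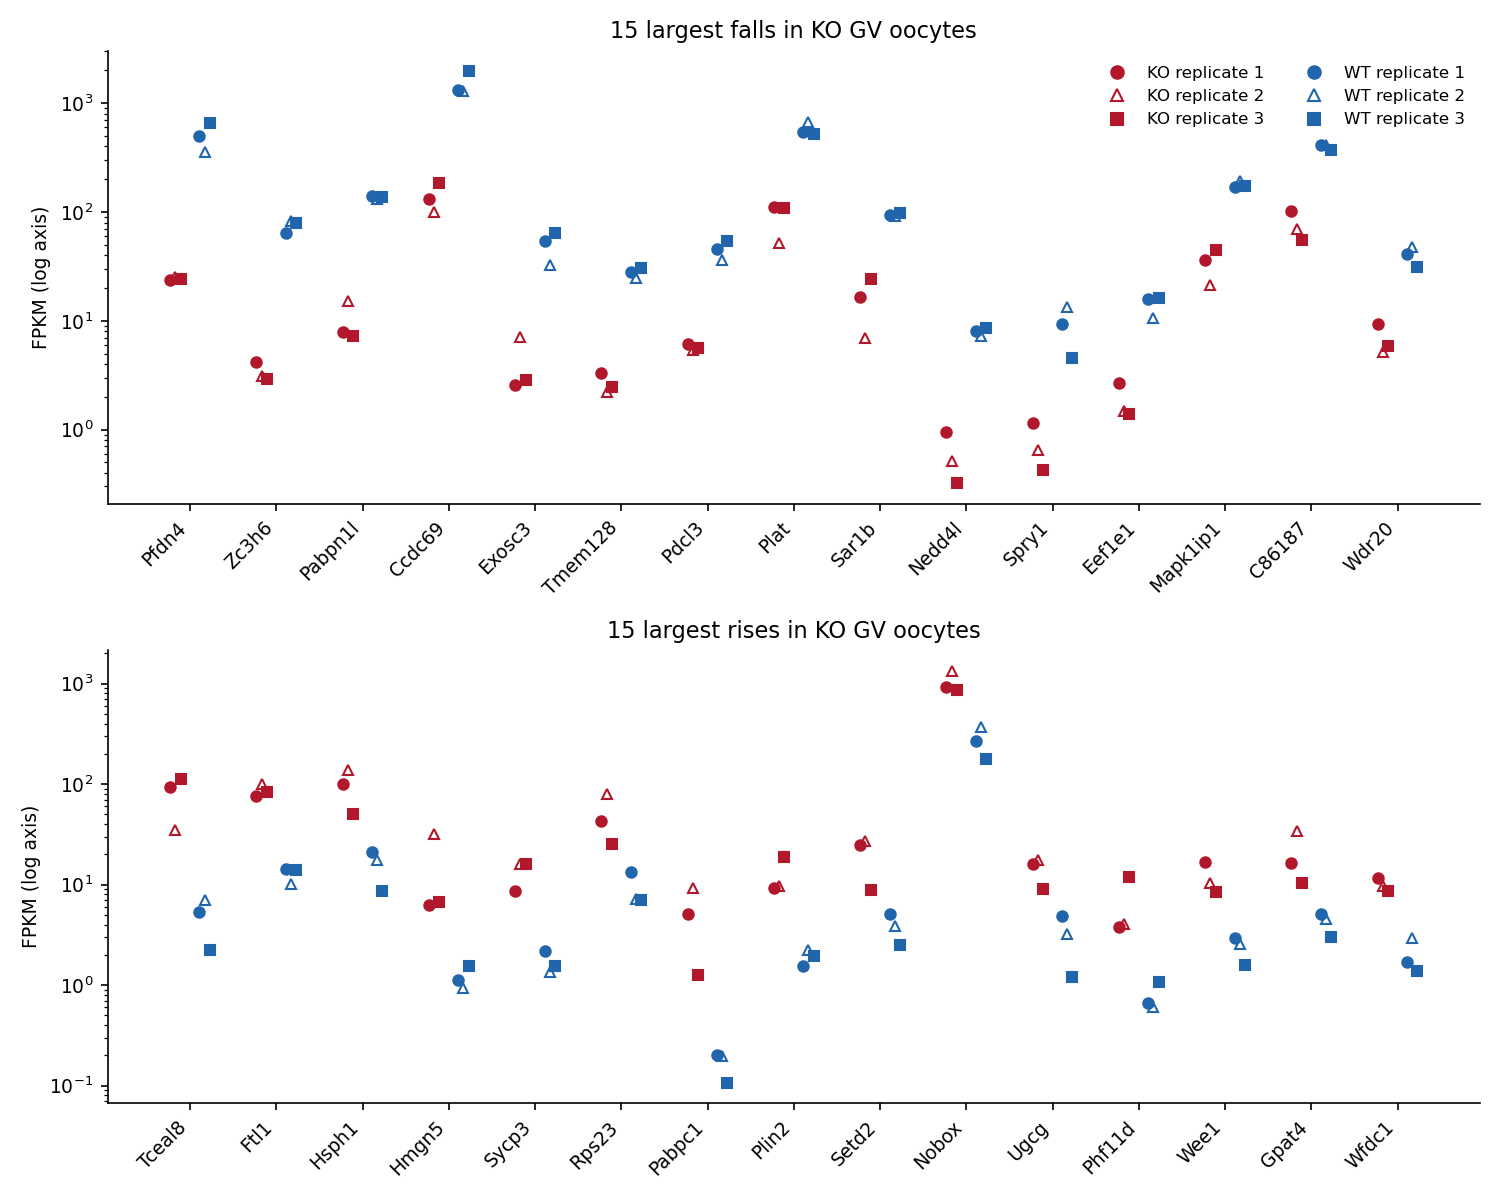
Level of the 15 largest falls (top) and the 15 largest rises (bottom) at GV in FPKM on a log axis, 1 symbol per library, with KO in red to the left of WT in blue for each gene and KO replicate 2 as an open red triangle. The 30 genes were chosen among those without overlap between KO and WT, and KO replicate 2 is the highest KO library for 3 of the falls and 9 of the rises, Hmgn5 among them, and the lowest for 7 of the falls and 1 of the rises, Tceal8.

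Dormant maternal mRNAs are those that growing oocytes store with short tails for translation during maturation. Of 36 such genes tested, 0 were higher and 7 (19.4%) were lower, against 1.38% higher and 2.70% lower over all genes, and their median log2 difference was -0.46, against 0.16 over all genes. Without KO replicate 2, 0 were higher, 8 were lower and the median was -0.30, against 0.09 over all genes. Per library, the median difference from the WT mean was -0.37, -0.79 and -0.44 in the KO libraries and -0.01, 0.04 and -0.10 in the WT libraries. KO replicate 2 was thus the lowest, and the other KO libraries also lay below every WT library. This list too was written with earlier results of these data known, so its share and median are not independent of them.

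Plat, which encodes tissue plasminogen activator and is a classical dormant mRNA, had 112, 51.4 and 109.9 FPKM in KO and 547, 675 and 525 FPKM in WT (log2 difference -2.74, SE 0.35, limma adjusted p = 0.0100). Dazl, a translational activator of the germ line, had 69.6, 53.4 and 106 FPKM in KO and 333, 314 and 356 FPKM in WT (-2.17, adjusted p = 0.0125). Mos, the kinase that starts the MAPK cascade of maturing oocytes, had 103, 94.3 and 115 FPKM in KO and 252, 267 and 218 FPKM in WT (-1.23, adjusted p = 0.0333). The KO libraries were all below the WT libraries in the 3 genes, as in every gene called lower. Fbxo43 (EMI2), the inhibitor of the anaphase-promoting complex that holds the egg in metaphase II, had 19.6, 14.1 and 13 FPKM in KO and 43.7, 42.4 and 45.9 FPKM in WT (-1.46, adjusted p = 0.0244), and Cdc6, a DNA replication licensing factor, had 7.41, 7.31 and 5.46 FPKM in KO and 14.9, 17.5 and 14.7 FPKM in WT (-1.12, adjusted p = 0.0485). The 5 genes were also called without KO replicate 2, at log2 differences of -2.37 for Plat, -1.95 for Dazl, -1.16 for Mos, -1.40 for Fbxo43 and -1.18 for Cdc6. Their calls were lost without KO replicate 1 and without each WT library, with adjusted p up to 0.0720 for Plat and 0.201 for Cdc6.

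Single genes of the machinery that later removes maternal mRNA were called lower, while the median of their list was -0.02. Btg4, the adaptor that brings the CCR4-NOT deadenylase to maternal mRNA, had 856, 761 and 787 FPKM in KO and 2743, 2150.2 and 4379 FPKM in WT (log2 difference -1.88, limma adjusted p = 0.0223). Dcp1a, a decapping cofactor whose mRNA is itself dormant, had 29.3, 16.9 and 14 FPKM in KO and 69.5, 67.4 and 52.3 FPKM in WT (-1.66, adjusted p = 0.0329), and Cnot8, a catalytic subunit of CCR4-NOT, had 33.2, 28.5 and 40.4 FPKM in KO and 77.8, 79.4 and 76.6 FPKM in WT (-1.19, adjusted p = 0.0377). KO libraries lay below WT libraries throughout in these genes, as in every gene called lower. Cnot7, the other CAF1-type catalytic subunit, had 27.9, 13 and 32.8 FPKM in KO and 58.4, 59.4 and 73 FPKM in WT, which passed only without KO replicate 2 (adjusted p = 0.0368, against 0.0620 with it). Of 28 genes of deadenylation, decapping and uridylation tested, 0 were higher and 3 were lower, Btg4, Dcp1a and Cnot8 (10.7%, against 2.70% over all genes). The median was -0.02 with and without KO replicate 2, against 0.16 and 0.09 over all genes. The log2 difference was positive in 13 of the 28. Without KO replicate 1 or any 1 WT library, Btg4, Dcp1a and Cnot8 missed the threshold, at adjusted p up to 0.184.

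Of 32 genes of repression and storage by the LSM14, DDX6 and 4E-T group, 2 (6.25%) were lower, against 2.70% over all genes, and 0 were higher. These were Dazl and Lsm14b itself, the deleted gene, whose fall the design fixed. The median of the list was 0.42 with and 0.29 without KO replicate 2. Patl2, an oocyte repressor of translation, had 126, 66.1 and 144 FPKM in KO and 32, 44.6 and 17.7 FPKM in WT without overlap, at an adjusted p of 0.0503 by limma with all libraries and 0.0216 without KO replicate 2. Among 26 genes of cytoplasmic polyadenylation and poly(A) binding, Pabpn1l and Cpsf4l were lower and Pabpc1 was higher, which is 11.5% of them, against 4.08% over all genes. Pabpc1, the general cytoplasmic poly(A)-binding protein gene, was at 5.16, 9.26 and 1.25 FPKM in KO and 0.201, 0.196 and 0.107 FPKM in WT, with KO replicate 3 the lowest KO library (adjusted p = 0.0472). Cpsf4l, a relative of the CPSF subunit gene Cpsf4, was at 113, 87.2 and 154 FPKM in KO and 328, 347 and 253 FPKM in WT (adjusted p = 0.0386). Both calls were lost without KO replicate 1 or any 1 WT library, at adjusted p up to 0.172 and 0.182.

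The CPE was found in a larger share of the genes that were lower in KO oocytes than of the others, which is given as a description with no test. The motif searched was TTTTAT or TTTTAAT on the strand of the transcript, in the last 100 bases of the annotated 3′ UTR of protein-coding genes (GENCODE vM21, 1 transcript per gene). It was found in 66 of 165 lower genes with such a window (40.0%), in 15 of 89 higher genes (16.9%) and in 1440 of all 6920 tested genes (20.8%). Without KO replicate 2 the shares were 84 of 233 lower genes (36.1%) and 22 of 135 higher genes (16.3%). Put the other way, 4.58% of the 1440 genes with the motif and 1.81% of the 5480 genes without it were called lower at GV. The lower genes also had the largest share in the last 50 bases, with 22.9% of the lower, 11.8% of the higher and 11.7% of all genes, and in the last 200 bases, with 53.5%, 32.0% and 32.1%. In these windows the higher genes and all genes had nearly the same share. The polyadenylation signal (AATAAA) was not more frequent in either set, at 63.6% of lower, 61.8% of higher and 65.9% of all genes in the last 100 bases. The UTRs of the lower genes were also poorer in G and C, with a median of 39.1%, against 41.1% in the higher genes and 42.8% in all genes. The part of base composition in the motif shares was not tested. A match is a description of the annotated sequence and does not show a used site.

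The following sites, from the mm10 annotation of GENCODE, are shown because they lie in mRNAs that fell at GV and whose levels are given above or below, with the motif in capitals and up to 30 bases of the UTR around it, 5′ to 3′ on the transcript strand. They lie at chr4:45316625-45316653 (minus strand, Exosc3), chr5:38269604-38269632 (plus, Tmem128), chr8:22782745-22782774 (plus, Plat), chr12:110794972-110795000 (plus, Wdr20), chr9:51119798-51119826 (plus, Btg4), chr14:30527010-30527039 (plus, Dcp1a), chr19:11711838-11711858 (plus, Oosp3) and chr9:75351580-75351609 (plus, Bcl2l10).
Exosc3: attataaaaacTTTTATataataaacttt
Tmem128: caataaaatatTTTTATaattttcttgtg
Plat: gtatatttataTTTTAATctattttagttt
Wdr20: cattttagtcaTTTTATgacaattaaaat
Btg4: gataaatccctTTTTATgtctttttaaaa
Dcp1a: caaatatatttTTTTAATaaaatttcaaaa
Oosp3: taaataaaacaTTTTATtgta
Bcl2l10: ccttaatacatTTTTAATaacttcaaattc
The motif ended 24 bases before the annotated transcript end in Exosc3, 14 in Tmem128, 82 in Plat, 40 in Wdr20, 61 in Btg4, 36 in Dcp1a, 4 in Oosp3 and 35 in Bcl2l10. Pfdn4, Zc3h6, Pabpn1l, Ccdc69, Pdcl3, Sar1b, Spry1, Eef1e1, Dazl, Mos and Fbxo43 had no such letters in that window, nor had Mapk1ip1 in its annotated UTR of 85 bases, so the deepest falls included genes with and without the motif.

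**Figure D3:**
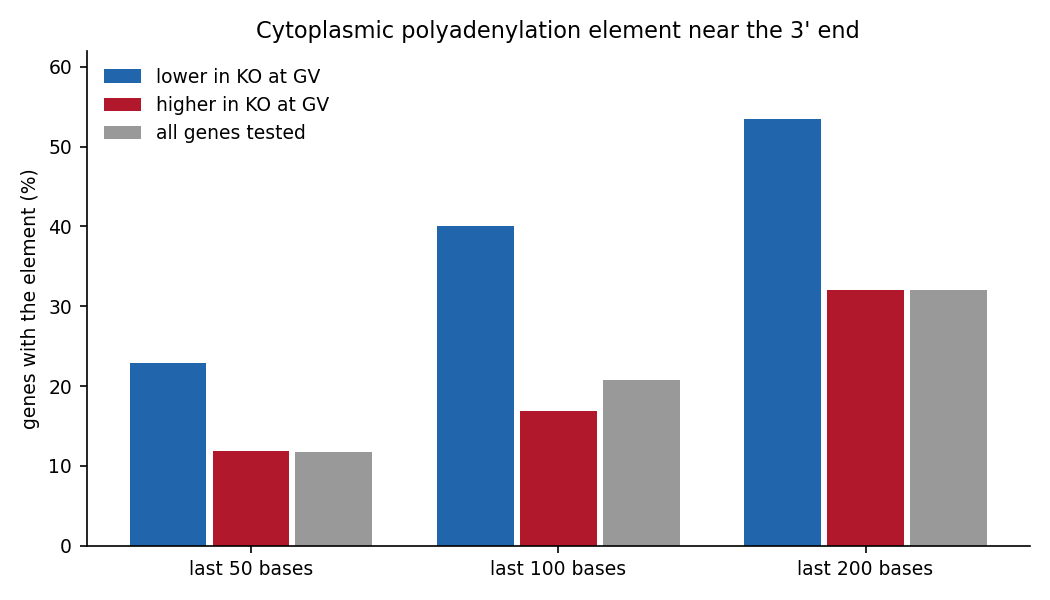
Percent of protein-coding genes with TTTTAT or TTTTAAT in the last 50, 100 or 200 bases of the annotated 3′ UTR, for genes lower in KO, genes higher in KO and all genes tested at GV. In the last 100 bases the motif was in 40.0% of lower, 16.9% of higher and 20.8% of all genes.

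The called genes of the egg surface list were both lower in KO. Oosp3, an oocyte-secreted protein gene, had 114, 64.4 and 123 FPKM in KO and 481, 455 and 477 FPKM in WT (log2 difference -2.27, limma adjusted p = 0.0113). Bcl2l10, a BCL2 family gene and one of the most abundant mRNAs of the oocyte, had 4826, 3509 and 3186 FPKM in KO and 12193, 10978 and 12396 FPKM in WT (-1.65, adjusted p = 0.0251). KO and WT were apart in both, as in every called gene. They were the 2 called members of the list of 13 zona and egg surface genes (15.4%, against 4.08% over all genes), whose median was -0.14 and -0.05 without KO replicate 2. Bcl2l10 was counted in this list although it is a BCL2 family gene, so the share is not one of egg surface genes alone. Of 28 genes of oocyte growth, 1 was higher, Nobox, and 1 was lower, Sohlh2 (7.14% called, against 4.08% over all genes). Sohlh2, a transcription factor of early folliculogenesis, was at 0.559, 0.945 and 0.176 FPKM in KO and 2.95, 3.46 and 1.87 FPKM in WT. Bmp15, Fgf8, Gja4 and Tcl1 passed as lower only without KO replicate 2. Bmp15, a growth factor secreted to cumulus cells, was at 1063, 417 and 1044 FPKM in KO and 2045, 2469 and 2105 FPKM in WT, with adjusted p of 0.0683 with and 0.0351 without KO replicate 2. Among the 27 subcortical maternal complex and Nlrp genes, 0 passed with all libraries. Without KO replicate 1 or any 1 WT library, Oosp3, Bcl2l10 and Sohlh2 missed the threshold, at adjusted p up to 0.0782, 0.160 and 0.162.

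The largest rises also belonged to different lists or to none. Tceal8, an X-linked transcription elongation factor A-like gene, had 93.1, 34.9 and 113 FPKM in KO and 5.39, 6.97 and 2.25 FPKM in WT, with a log2 difference of 3.73 (SE 0.50, limma adjusted p = 0.0113) and of 4.24 without KO replicate 2. Ftl1, the ferritin light chain, had 75.9, 99.9 and 83.2 FPKM in KO and 14.2, 10.1 and 14.1 FPKM in WT (2.67, adjusted p = 0.00465), and 34.6% of its exons are shared with other genes. Hsph1, a large heat shock protein that recharges HSP70, had 99.7, 139 and 50.5 FPKM in KO and 20.9, 17.7 and 8.54 FPKM in WT (2.51, adjusted p = 0.0266). Every KO library exceeded every WT library in the 3 genes, which the choice of the largest rises required. Of 31 heat shock genes, 3 were higher (Hsph1, Fkbp4 and St13) and 1 was lower (Dnajb4), with 12.9% called, against 4.08% over all genes. The co-chaperone Fkbp4 was at 12.1, 13.5 and 9.37 FPKM in KO and 4.31, 4.43 and 2.09 FPKM in WT, and Dnajb4, an HSP40, was at 18.6, 13.6 and 29.7 FPKM in KO and 61, 52.1 and 97.2 FPKM in WT. The list's median was 0.39, and 0.30 without KO replicate 2. Atf4, a transcription factor of the integrated stress response, rose to 202, 243 and 174 FPKM in KO, against 106, 92.9 and 77 FPKM in WT (adjusted p = 0.0479). Hspa5, the main chaperone of the endoplasmic reticulum, was at 117, 252 and 59.3 FPKM in KO and 35, 31.5 and 20.7 FPKM in WT, with adjusted p of 0.0573 and of 0.0470 without KO replicate 2, its highest library. All of these calls but that of Ftl1 were lost without KO replicate 1 or any 1 WT library.

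Further large rises were those of Plin2, Gpat4, Ugcg, Nobox, Setd2 and Hmgn5. Plin2, the coat protein of lipid droplets, had 9.26, 9.69 and 18.7 FPKM in KO and 1.56, 2.24 and 1.96 FPKM in WT (log2 difference 2.15, limma adjusted p = 0.0163). Gpat4, an enzyme of glycerolipid synthesis, had 16.3, 34.3 and 10.4 FPKM in KO and 5.05, 4.52 and 3.03 FPKM in WT, and Ugcg, which makes glucosylceramide, had 16, 17.7 and 8.94 FPKM in KO and 4.86, 3.25 and 1.21 FPKM in WT. The groups did not overlap, which the choice of the largest rises required, though the KO libraries spread widely. Nobox, a homeobox transcription factor of oocyte growth, had 932, 1336 and 856 FPKM in KO and 266, 367 and 177 FPKM in WT (1.98, adjusted p = 0.0228). Setd2, the histone H3 lysine 36 trimethylase, had 25, 27 and 8.86 FPKM in KO and 5.13, 3.84 and 2.52 FPKM in WT (2.03, adjusted p = 0.0421), and Hmgn5, a nucleosome-binding protein gene, had 6.32, 31.6 and 6.77 FPKM in KO and 1.12, 0.946 and 1.56 FPKM in WT (2.48, adjusted p = 0.0445). KO replicate 2 was the highest KO library for all of Gpat4, Ugcg, Nobox, Setd2 and Hmgn5. Without it, Setd2 and Ugcg missed the threshold at adjusted p of 0.0585 and 0.0598, and the difference of Hmgn5 was 1.78. Kdm7a, a histone demethylase gene, went the other way at 1.43, 1.24 and 0.565 FPKM in KO and 6.52, 5.76 and 5.76 FPKM in WT (adjusted p = 0.0159). Of the 38 chromatin genes tested, 2 were higher and 1 was lower (7.89% called, against 4.08% over all genes). The median of that list was 0.72 with and 0.42 without KO replicate 2. Without KO replicate 1 or any 1 WT library none of these 7 genes was called, at adjusted p up to 0.182.

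In the cell cycle and meiosis lists, genes passed in both directions. Wee1, the kinase that inhibits CDK1, rose to 16.8, 10.4 and 8.51 FPKM in KO, against 2.94, 2.57 and 1.58 FPKM in WT (log2 difference 1.91, limma adjusted p = 0.0224). It was the 1 called gene of 32 in the list of cAMP arrest and CDK1 control (3.1%, against 4.08% over all genes). Sycp3, a structural protein of the synaptonemal complex, had 8.58, 16 and 16.1 FPKM in KO and 2.19, 1.35 and 1.56 FPKM in WT (2.39, adjusted p = 0.0113), but 52.2% of its exons are shared with other genes. Rad21l, a meiotic cohesin subunit, was higher at 4.78, 4.33 and 3.92 FPKM in KO and 1.51, 1.62 and 1.57 FPKM in WT, and Esco1, a cohesin acetyltransferase, was lower at 8.68, 5.18 and 10.3 FPKM in KO and 23.1, 19 and 22.4 FPKM in WT. These were the 2 called genes of 21 in the cohesin and condensin list (9.52%, against 4.08% over all genes). Of 34 spindle and kinetochore genes, 0 passed with all libraries and 1, Cenpa, was lower without KO replicate 2, at 2.06, 3.08 and 1.87 FPKM in KO and 5.30, 6.42 and 4.80 FPKM in WT. Wee1, Rad21l and Esco1 missed the threshold without KO replicate 1 or any 1 WT library, and Sycp3 without any 1 WT library, at adjusted p up to 0.206.

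In the ribosome and mitochondria lists KO replicate 2 lay apart from the other KO libraries. The median of 76 cytosolic ribosomal protein genes, relative to the WT mean, was 0.41, 1.70 and 0.13 in the KO libraries and 0.20, -0.28 and 0.07 in the WT libraries. The fitted median was 0.73 with KO replicate 2 and 0.30 without it, and 1 of 76 passed with all libraries. That gene, Rps23, was at 43.4, 79.8 and 25.2 FPKM in KO and 13.3, 7.21 and 7.10 FPKM in WT (limma adjusted p = 0.0353). For 78 nuclear genes of oxidative phosphorylation the library medians were 0.15, 1.08 and 0.16 in KO and 0.15, -0.19 and 0.06 in WT, and for the 11 mRNAs encoded by mitochondrial DNA 0.63, -0.68 and 0.33 in KO and -0.10, -0.25 and 0.07 in WT. KO replicate 2 was thus the highest library in the ribosomal and oxidative phosphorylation lists and the lowest in the mitochondrially encoded one. Among nuclear oxidative phosphorylation genes 1 passed, Uqcrc1, a subunit of complex III, at 5.44, 3.80 and 5.78 FPKM in KO and 1.96, 1.55 and 0.935 FPKM in WT. For 68 mitochondrial ribosomal protein genes the library medians were -0.29, 0.28 and -0.22 in KO and 0.08, -0.15 and 0.04 in WT. KO replicate 2 was thus again the highest library. It was also the highest over all tested genes, where the medians were 0.20, 0.32 and -0.05 in KO and 0.08, 0.01 and -0.10 in WT. The fitted median of the mitochondrial ribosomal genes was -0.10, and -0.27 without KO replicate 2, unlike the positive medians of the cytosolic ones. Of these 68, 1 was higher and 2 were lower (4.41%, against 4.08% over all genes). Mrps18a, a member of the small mitochondrial subunit, fell to 2.80, 4.37 and 3.15 FPKM in KO, against 19.7, 17.2 and 16.7 FPKM in WT (-2.10, adjusted p = 0.00940). Mrpl10, of the large subunit, was also lower, at 15.3, 9.95 and 13.5 FPKM in KO and 31.8, 38.5 and 27.2 FPKM in WT (adjusted p = 0.0416), while Mrpl20, of the same subunit, was higher, at 2.38, 3.91 and 1.79 FPKM in KO and 0.277, 0.696 and 0.338 FPKM in WT (adjusted p = 0.0344). The calls of Rps23, Uqcrc1 and the 3 mitochondrial ribosomal genes were lost without KO replicate 1 or any 1 WT library, at adjusted p up to 0.184.

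**Figure D4:**
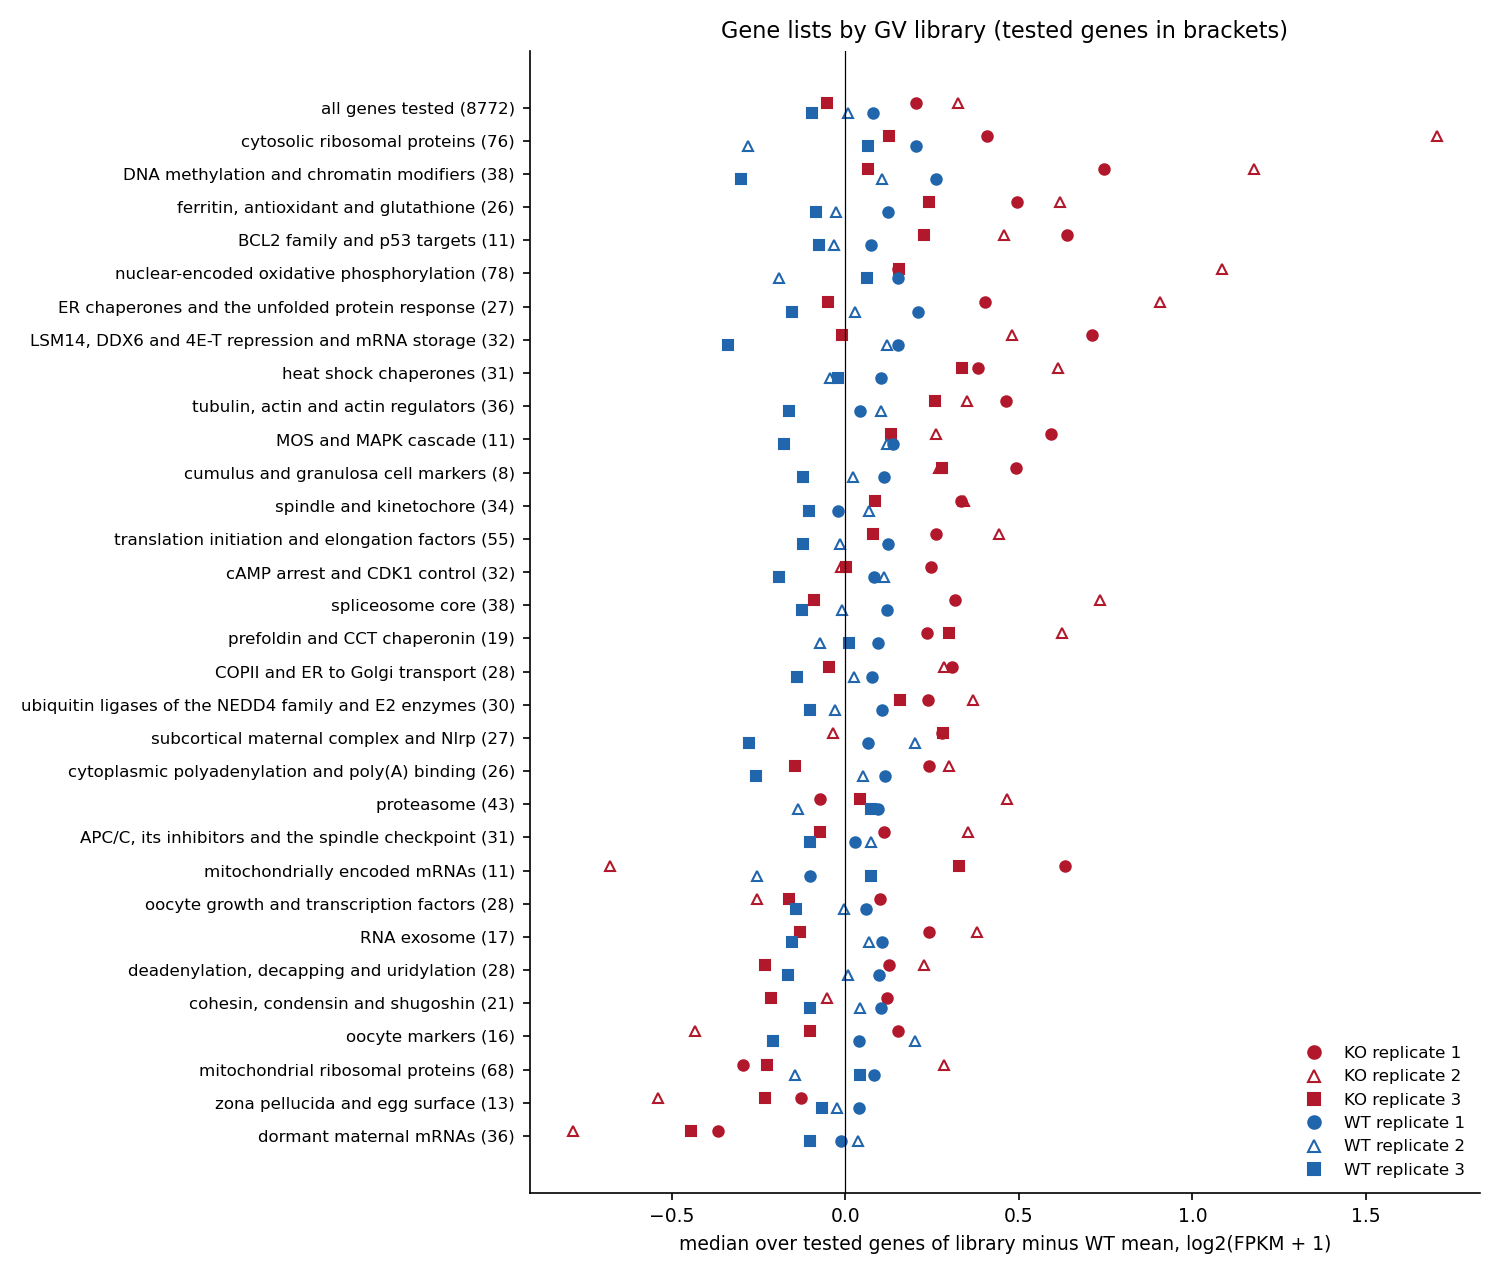
Median over the tested genes of each list of the level in a library minus the mean of the WT libraries, on the log2(FPKM + 1) scale, 1 symbol per GV library, with KO in red drawn above WT in blue. KO replicate 2 (open red triangle) lies at 1.70 for cytosolic ribosomal proteins and -0.68 for mitochondrially encoded mRNAs, and the dormant mRNAs are below 0 in all 3 KO libraries.

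Of the 929 tested genes that belong to at least 1 of the 35 lists, 50 passed with all libraries (5.38%, against 4.08% over all genes). In the ferritin and antioxidant list 2 of 26 were higher, Ftl1 and Prdx4, a peroxiredoxin of the endoplasmic reticulum at 2.57, 2.96 and 2.93 FPKM in KO and 1.00, 0.985 and 0.868 FPKM in WT. Snrpb, a core spliceosome protein gene, was the 1 called gene of 38 in its list, at 13.7, 15.9 and 9.11 FPKM in KO and 4.13, 3.15 and 1.92 FPKM in WT (limma adjusted p = 0.0287). The ubiquitin ligase Nedd4, the paralog of Nedd4l, was higher at 5.89, 7.24 and 2.58 FPKM in KO and 0.906, 1.37 and 0.769 FPKM in WT (adjusted p = 0.0449, and 0.0588 without KO replicate 2). The 2 paralogs thus differed in opposite directions at GV. Tubulin and actin regulators had 0 of 36 and 2-cell embryo genes 0 of 5 called. Fshr encodes the receptor of follicle-stimulating hormone in granulosa cells. It was the 1 called gene of 8 tested cumulus and granulosa markers (12.5%, against 4.08% over all genes). Fshr was at 1.18, 1.95 and 1.30 FPKM in KO and 0.317, 0.293 and 0.169 FPKM in WT, a low level in both groups. Its adjusted p was 0.0343 and reached 0.151 when 1 library was left out. In each of these genes the call was lost without KO replicate 1 or any 1 WT library, except Ftl1.

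The genes that were lower at GV were mostly still lower in the libraries of the later stages, which share no library with the GV comparison. At MI, limma called 1400 of the 8772 genes (16.0%), 324 higher (3.69%) and 1076 lower (12.3%), and at MII 3457 (39.4%), 1875 higher (21.4%) and 1582 lower (18%). Of the 237 genes lower at GV, 198 (83.5%) were called lower at MI, 184 (77.6%) at MII and 162 at both, with median log2 differences of -1.44 at MI and -1.36 at MII. Of the 121 genes higher at GV, 46 (38.0%) were called higher at MI, 81 (66.9%) at MII and 44 at both, with medians of 0.72 and 0.74. Called the opposite way were 0 of either set at MI and 2 of the lower genes at MII, Cpsf4l and Rnaset2b. Rnaset2b, a secreted ribonuclease gene with a near-identical copy, had 40.0, 58.5 and 60.4 FPKM in KO and 133, 105 and 134 FPKM in WT at GV and 8.16, 6.66 and 6.54 FPKM in KO and 2.83, 2.97 and 3.54 FPKM in WT at MII, and reads of the copies cannot be told apart.

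**Figure D5:**
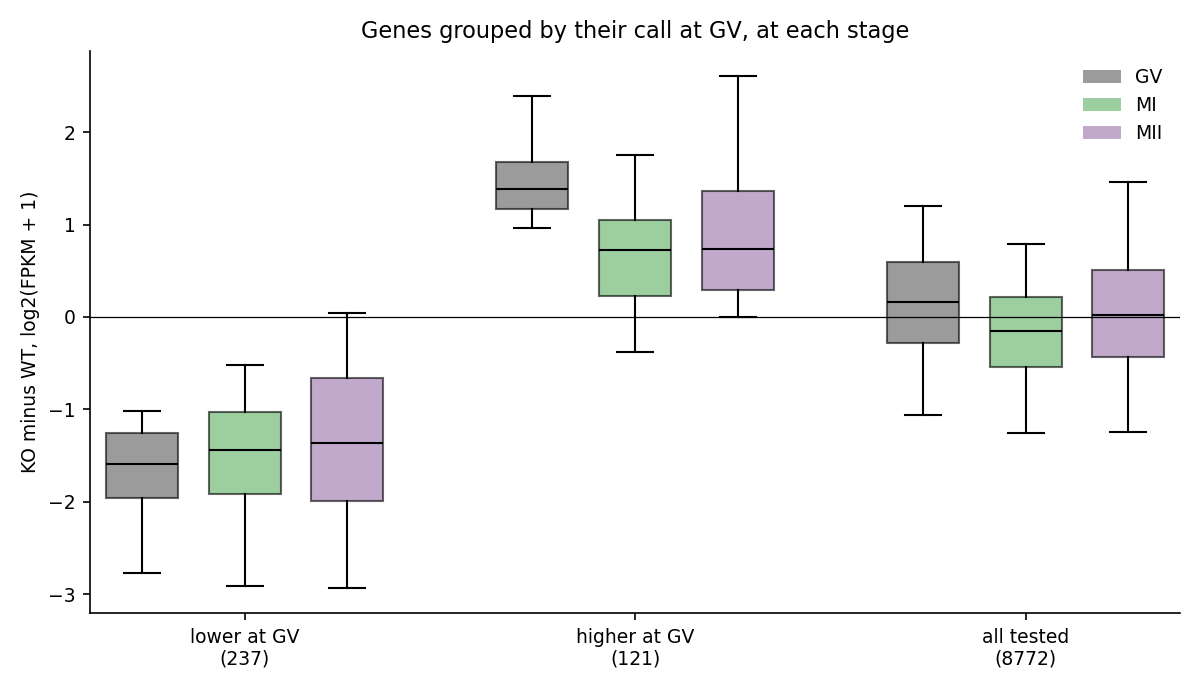
Difference of KO minus WT on the log2(FPKM + 1) scale at GV, MI and MII for genes called lower at GV, genes called higher at GV and all genes tested. Boxes show the quartiles with the median as a line, and whiskers the 5th and 95th percentiles: the median of the lower genes was -1.44 at MI and -1.36 at MII, and that of the higher genes 0.72 and 0.74.

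The levels of individual genes after GV are given as values. Pfdn4 was still at 42.4, 48.9 and 50.2 FPKM in KO and 796, 479 and 577 FPKM in WT at MI, and at 40.2, 25 and 43.8 FPKM in KO and 510.4, 774 and 519 FPKM in WT at MII, with log2 differences of -3.65 and -4.02. Zc3h6 had log2 differences of -3.89 at MI and -4.45 at MII. Both genes were still far lower in KO at the later stages. Plat had 165, 264 and 127 FPKM in KO and 204, 293 and 437 FPKM in WT at MI, a log2 difference of -0.74 that did not pass (limma adjusted p = 0.142). Eef1e1 had a log2 difference of -0.92 at MI and -0.06 at MII (adjusted p = 0.0434 and 0.896), with 5.09, 2.11 and 4.34 FPKM in KO and 3.90, 5.36 and 2.68 FPKM in WT at MII. At MII the groups of Eef1e1 overlapped. Kdm7a had differences of -1.78 at GV, -3.19 at MI and -3.94 at MII. Tceal8 was at 33.3, 27.3 and 27.7 FPKM in KO and 1.34, 3.32 and 0.552 FPKM in WT at MII (3.60). Hmgn5 and Wfdc1, among the 15 largest rises at GV, did not pass at either later stage, with differences of 0.99 and 0.71 for Hmgn5 and 0.27 and 0.47 for Wfdc1. Of the 15 largest falls 13 and of the 15 largest rises 11 were called the same way at both later stages. Whether the difference of a gene changed between stages was not tested.

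Between MI and MII, when WT oocytes clear many maternal mRNAs, the genes lower at GV had a median course of their own in WT, given as a description. Their median change from MI to MII in WT was 0.11, against -0.34 for the genes higher at GV and -0.20 for all tested genes, on the log2 scale. This course comes from WT libraries that the GV comparison did not use. The CPE share, again a description with no test, was not the same at each stage: of the genes called lower, 20.0% of 765 at MI and 30.2% of 1257 at MII held the motif in the last 100 bases, against 40.0% of 165 at GV and 20.8% of all tested genes.

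Close to Lsm14b the share of called genes was near that of all genes. Of 54 other tested genes within 10 Mb of it, 2 were called (3.70%, against 4.08% over all genes), both lower, Pfdn4 at a distance of 9.53 Mb and Tfap2c. Tfap2c, an AP-2 transcription factor gene named for its position, had 0.863, 1.05 and 0.245 FPKM in KO and 4.99, 5.32 and 3.53 FPKM in WT. Over chromosome 2, Lsm14b included, 20 of 629 tested genes were called (3.18%). On the X chromosome 26 of 334 were called (7.78%), 12 of them higher, with Tceal8, Hmgn5 and Prdx4 among them.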

How the data were processed

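RNA of 18 oocyte libraries was primed with oligo(dT) and amplified by Smart-seq2, per the labels' protocols. The deposited table holds FPKM, computed by the authors, for 27874 genes. The submitters' processing notes list the mm10 build and the package DESeq2 1.38.3, with no role stated, and the sources used here name no aligner, annotation or library strand. Identifiers were matched to GENCODE vM21 (27829 found), from which exon overlaps and 3′ UTRs were taken, and reads per gene were recovered from FPKM and exon length. Amplified reads carried no molecular identifiers, so depth speaks for counting error alone.

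Of these genes, 8772 that reached 1 FPKM in 3 or more GV libraries were tested on log2(FPKM + 1) with limma 3.58.1 (trend, empirical Bayes, R 4.3.3), KO against WT, with no covariate. Two-sided p-values were adjusted over all these genes after Benjamini-Hochberg, with a threshold of 0.05. The same fit was run without KO replicate 2 and, on the same genes, at MI and MII. A run on simulated data used 1 spread per gene for all libraries. It did not include the wider spread of KO replicates 2 and 3, so it does not speak for the counts given here. A log2 difference is a fitted difference on the log2(FPKM + 1) scale, which understates changes of low genes.

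Named genes are Lsm14b, Lsm14a, the 15 largest rises and falls and up to 4 members per list with the smallest p. The rises and falls had an adjusted p under 0.05, no overlap, a mean of at least 5 FPKM in the higher group and an unadjusted p under 0.05 without KO replicate 2, and no symbol of a predicted gene, clone or pseudogene was taken. Further list members are named where their call depends on KO replicate 2. The libraries and the 35 lists were chosen with earlier results of these data known. Tables and figures used Python 3.11.15, pandas 2.3.3 and matplotlib 3.10.9.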

Additional observations from a re-analysis of the deposited data

Results flagged for a closer look

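Cpsf4l, a relative of the polyadenylation factor gene Cpsf4, was lower in all 3 KO libraries than in all 3 WT libraries at GV and higher in all 3 KO libraries at MII. At GV it had 113, 87.2 and 154 FPKM in KO and 328, 347 and 253 FPKM in WT, a log2 difference of -1.41 (limma with Benjamini-Hochberg adjustment, adjusted p = 0.0386). At MI it had 20.5, 18.2 and 11.9 FPKM in KO and 35.5, 118 and 58.4 FPKM in WT, a log2 difference of -1.87. At MII it had 2.72, 2.28 and 1.72 FPKM in KO and 1.43, 1.24 and 0.739 FPKM in WT, a log2 difference of 0.60 (adjusted p = 0.0383). The difference between the stages was not tested.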

How the results depend on the processing

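Of 64 genes (Lsm14b, Lsm14a, the 15 largest rises and falls and the called list members), 0 changed sign in 16 alternatives. The same held for the 50 of them that a minimum of 5 FPKM kept. In most of these fits, among them those that left out 1 library, groups without overlap fixed the sign of a called gene in advance. Of the 63 called among the 64 genes, 52 missed the threshold with no filter and 22 with the replicate block. Against 358 called genes (121 higher and 237 lower), no filter on low values gave 104 (21 and 83), median-of-ratios scaling 595 (219 and 376), quantile normalization 598 (186 and 412), 1 model of all 18 libraries 1945 (1212 and 733) and array weights per library 3746 (2374 and 1372). A pseudocount of 5 gave 72 higher genes and a minimum of 5 FPKM gave 77. Leaving out 1 library gave 12 to 2545 called genes, 1 to 1834 higher and 11 to 711 lower. Without KO replicate 2, quantile normalization gave 811 (286 and 525) and 1 model of the remaining libraries 1050 (479 and 571), against 509. Called list members numbered 50, and 9 with no filter, 240 in the model of all libraries, 406 with array weights, 33 with the replicate block and 6 to 300 with 1 library left out. Same-numbered libraries deviated together with correlations of 0.10, -0.13 and 0.37, so the numbers were not taken to pair them, and a fit with the replicate number as a block called 195 genes (62 and 133). A limma fit of voom values of the recovered reads, added after seeing the data, called 321 genes (112 and 209). The median of all genes was 0.16 as deposited, 0.04 after median-of-ratios scaling and -0.005 after quantile normalization. KO replicates 2 and 3 spread most around their group mean (SD of deviations 0.543 and 0.495, against 0.184 to 0.300 in WT), and the part of this in the counts was not tested.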
